A study of Rattus norvegicus with 23 samples.

Results

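The nerves repaired with a muscle-in-vein graft (MIV) and collected at day 3 were compared with healthy muscle, the tissue that fills this graft. The comparison took 6 of the 23 libraries of the series, chosen by their labels, and every one of the 32545 gene identifiers in the count table. Of these, 9099 had no count in any library and 15954 passed the filter on low counts and were tested. All animals were adult female Rattus norvegicus with the genotype label WT. In the MIV day 3 group (n = 3) the median nerve was transected, the 8 mm defect was bridged with a muscle-in-vein graft 10 mm long, and tissue was collected 3 days later. The healthy muscle group (n = 3) was untreated adductor muscle, labelled day 0. For context, values are also given for MIV nerves at day 7 (n = 3), for repaired nerves labelled EV at day 3 and day 7 (n = 3 each), and for untreated median nerve (n = 5) and epigastric vein (n = 3). For the EV nerves the treatment label gives a repaired nerve without MIV, and the abbreviation EV is not spelled out. The labels give the same 8 mm defect for the EV nerves and the MIV day 7 nerves.

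A muscle-in-vein graft is a vein segment packed with fibres of skeletal muscle, a conduit that guides regrowing axons across a gap in a nerve. Skeletal muscle fibres devote much of their RNA to a small set of contractile and energy-metabolism transcripts. A cut nerve is invaded early by immune cells while its Schwann cells leave the myelinating state and divide. Muscle that has lost its blood and nerve supply degenerates, and satellite cells, the stem cells of muscle, can then form new fibres that use developmental forms of the contractile proteins.

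RNA of each library was counted per gene as whole reads, and the 6 libraries held between 13369080 and 17314324 counts. No label says that the libraries of a group came from separate animals, nor whether the tissue piece held graft only, so p-values reflect only how these samples vary, which may be technical. In such bulk tissue, fewer cells of a type and less RNA per cell cannot be told apart. Replicates correlated across 15954 genes at 0.961 to 0.981 within MIV day 3 and at 0.964 to 0.97 within healthy muscle (Pearson r of log2 CPM, where CPM is the count scaled to library size). The MIV day 3 libraries correlated at 0.703 to 0.762 with healthy muscle, at 0.729 to 0.757 with healthy nerve, at 0.771 to 0.81 with healthy vein and at 0.916 to 0.973 with EV day 3. These correlations share library depth and describe likeness only. No source used here pairs the identifiers with symbols, so the defining markers of muscle, nerve and vein could not be looked up by name. Groups of genes are therefore described by the tissue or the repaired nerve that carried them, and no sequences are shown.

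The counts of MIV day 3 nerves were spread over many more genes than those of healthy muscle. The 10 most counted genes took 8.166%, 10.41% and 8.795% of the counts in MIV day 3 replicates 1, 2 and 3, against 29.05%, 27.95% and 27.45% in healthy muscle replicates 1, 2 and 3. The groups did not overlap, and the difference was -19.0 percentage points (exact permutation test, two-sided, p = 0.1, which is the lowest value possible with 3 against 3 libraries). In MIV day 3, 695, 609 and 700 genes together made up 50% of the counts, whereas 42, 41 and 44 genes sufficed in healthy muscle (exact permutation p = 0.1). EV day 3 nerves needed 649.7 genes on average, healthy nerve 603.8 and healthy vein 685.7. The number of genes with at least 10 counts was 14193 ± 87.9 in MIV day 3 and 11976 ± 163 in healthy muscle (SD, n = 3 each; exact permutation p = 0.1). All 5 measures of this kind were without overlap, and each had an adjusted p of 0.1 (Benjamini-Hochberg over the 5 exact permutation tests).

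**Figure D1:**
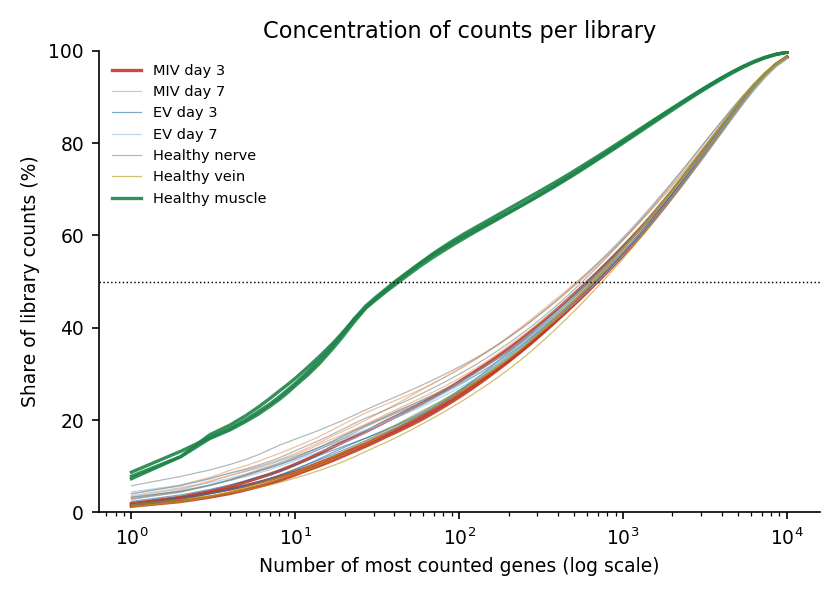
Share of library counts (%) taken by the most counted genes, against their number on a log scale, with 1 line per library in 7 groups. The 3 healthy muscle lines cross 50% at 41 to 44 genes, while the 3 MIV day 3 lines cross it at 609 to 700 genes, among the other groups.

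Most tested genes differed between MIV day 3 and healthy muscle. Of 15954 genes tested with edgeR's quasi-likelihood test, 5338 were higher (33.5%) and 5263 lower (33.0%) in MIV day 3 at a Benjamini-Hochberg adjusted p under 0.05, and 5353 were not called. The 3 libraries of MIV day 3 lay wholly above those of healthy muscle for 5702 genes (35.7%) and wholly below for 5368 (33.6%). A change of at least 4-fold with the same adjusted p was found for 2831 genes higher (17.7%) and 2193 lower (13.7%). The extremes reached further: 423 genes were at least 64-fold higher and 307 at least 64-fold lower, and 103 and 129 passed 256-fold. The median log2 fold change was 2.14 among the genes called higher and -1.67 among those called lower.

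Levels in these tests are CPM scaled with TMM factors, which centre the bulk of genes between libraries. The factors were 1.15 to 1.21 in MIV day 3 and 0.41 to 0.42 in healthy muscle, so the scaling raised the levels of healthy muscle. With library totals and no factors, the median over all genes was a log2 fold change of 1.56, beside 0.07 with TMM, and 84.9% of called genes were higher in MIV day 3, against 50.4% with TMM. With factors computed without the muscle-enriched genes (genes highest in healthy muscle), the median shifted by -0.24 and the balance of calls turned, with 4555 genes higher and 6155 lower (42.5% higher). The direction of small changes therefore holds only relative to the median gene.

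**Figure D2:**
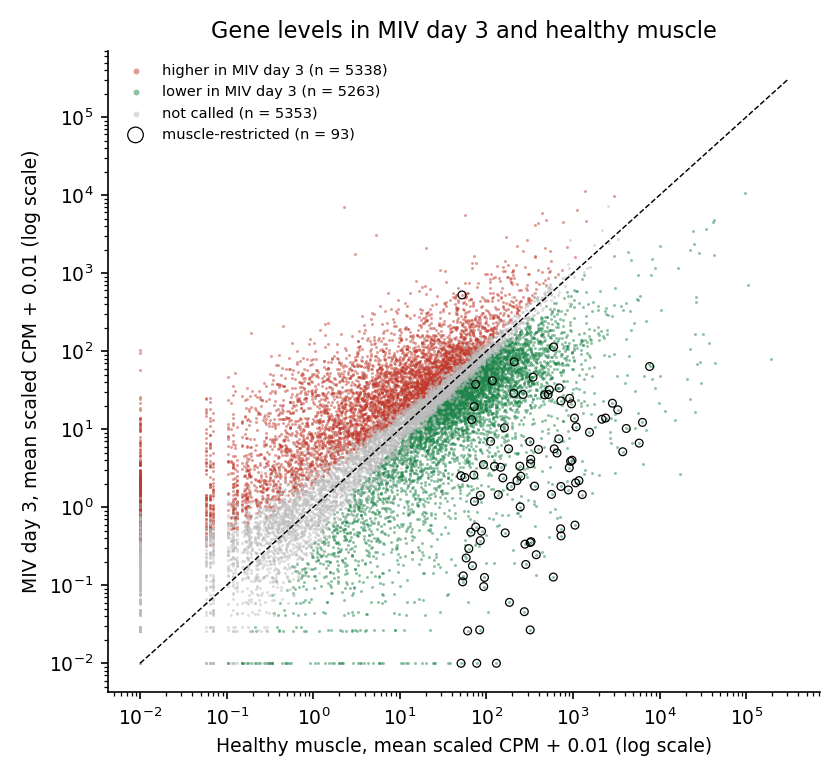
Mean scaled CPM + 0.01 of each tested gene in MIV day 3 (y axis, n = 3) against healthy muscle (x axis, n = 3), both on log scales. Red points are the 5338 genes called higher, green the 5263 called lower, grey those not called, and open circles the 93 muscle-restricted genes, of which 1 lies above the dashed line of equal level by a called difference.

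The genes that rose were weakly represented in muscle and were carried by the other tissues and repaired nerves as well. The 2831 genes at least 4-fold higher had a median level of 16.8 CPM in MIV day 3 and 1.18 CPM in healthy muscle, with 16.02 CPM in EV day 3, 4.82 CPM in healthy nerve and 4.55 CPM in healthy vein. They took 29.3% ± 0.911 of the counts in MIV day 3 and 1.13% ± 0.184 in healthy muscle (SD, n = 3 each). These genes were chosen by this contrast, so both values describe them and carry no test. Within this set, the MIV day 3 mean was also at least 4-fold above the means of both healthy nerve and healthy vein for 889 genes (31.4%). It lay within 4-fold of the higher of those tissues for 1761 genes (62.2%) and at least 4-fold below it for 181 (6.4%). The MIV day 3 and EV day 3 means lay within 2-fold of each other for 2569 of the 2831 genes (90.7%). The share of all tested genes within 2-fold is not given, here or for the later sets of genes. Such values therefore describe a set and do not set it apart from other genes. Over all 15954 genes, the libraries of these 2 groups correlated at 0.916 to 0.973.

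The genes at least 4-fold lower held most of the healthy muscle counts. They took 11.2% ± 1.62 of the counts in MIV day 3 and 75.6% ± 0.549 in healthy muscle (SD, n = 3 each), and their median level was 6.11 CPM in MIV day 3 and 77.7 CPM in healthy muscle. Their median was 4.43 CPM in EV day 3, 12.6 CPM in healthy nerve and 10.6 CPM in healthy vein. The MIV day 3 mean was within 2-fold of the EV day 3 mean for 1638 of these 2193 genes (74.7%). It was at least 4-fold above it for 313 (14.3%) and at least 4-fold below it for 100 (4.6%).

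Calls in each direction changed with the level of a gene. Genes were divided into 4 groups of near-equal size by their mean over all 23 libraries. Among the 3989 genes with the lowest means, 0.185 to 2.46 CPM, 26.9% were higher and 18.9% lower in MIV day 3. Among the 3989 with the highest means, 42.4 CPM or more, 34.4% were higher and 42.5% lower. The median log2 fold change was 0.69 in the lowest group and -0.13 in the highest. In that highest group, 445 genes were at least 4-fold higher and 513 at least 4-fold lower.

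At the top of the genes that rose, by the order of log2 fold change among genes with at least 10 CPM in the higher group and no overlap, stood ENSRNOG00000026235. It had 2085, 1901 and 1959 counts in the MIV day 3 libraries and 0 in each healthy muscle library. Its level was 103 CPM ± 7.63 in MIV day 3 (SD, n = 3), which is at least 639-fold higher than in healthy muscle, taking 3 counts over the muscle group as the floor (edgeR adjusted p = 6.76e-08). It stood at 63.2 CPM ± 15.1 in EV day 3 (SD, n = 3), 0.759 CPM in healthy nerve and 0.0861 CPM in healthy vein. The gene was thus high in all 6 repaired nerves of day 3 and near 0 in the 11 healthy libraries. At MIV day 7 its 3 libraries were spread from 193 to 1800 counts.

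The second, ENSRNOG00000030187, had 889, 1804 and 2825 counts in MIV day 3 and again 0 in each healthy muscle library. Its level of 94.5 CPM ± 46 (SD, n = 3) in MIV day 3 was at least 593-fold higher than in healthy muscle (edgeR adjusted p = 2.87e-06). EV day 3 carried it at 77.6 CPM ± 56.2 (SD, n = 3), while healthy nerve stood at 0.0492 CPM and healthy vein at 0.0737 CPM. Neither gene passed the test between MIV day 3 and EV day 3 (log2 fold change 0.70 for ENSRNOG00000026235 and 0.29 for ENSRNOG00000030187, edgeR adjusted p = 1 for both). In all, 19 identifiers had no count in any healthy muscle library and a mean of at least 10 CPM in MIV day 3. Their median was 13.9 CPM in MIV day 3 and also 13.9 CPM in EV day 3, and 16 of the 19 lay within 2-fold between these 2 groups.

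At the other end, ENSRNOG00000024885 had 0 counts in each MIV day 3 library and 573, 907 and 990 counts in the healthy muscle libraries. Healthy muscle carried it at 130 CPM ± 23.6 (SD, n = 3), so that MIV day 3 was at least 2555-fold lower (edgeR adjusted p = 4.01e-07, floor of 3 counts over the MIV day 3 group). It was at 0 in EV day 3 as well, and the MIV day 7 libraries held 6, 3 and 60 counts. ENSRNOG00000049124 had 1, 0 and 0 counts in MIV day 3, against 1671, 1234 and 3247 in healthy muscle. From the 1 count in MIV day 3, its level in healthy muscle was 19090 times that in MIV day 3, with an exact 95% counting interval of 3425 to 754200 (edgeR adjusted p = 1.07e-06). This gene stayed at 0 in all MIV day 7 libraries. In all, 16 identifiers had no count in any MIV day 3 library and a mean of at least 10 CPM in healthy muscle, and 5 of them had no count in healthy nerve or vein either.

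Genes that separate EV day 3 nerves from healthy nerve and vein were then followed in this contrast. Gene groups were taken from the 17 libraries outside the comparison, so that neither MIV day 3 nor healthy muscle chose them, and all thresholds were a log2 fold change of 1 and an adjusted p under 0.05 in edgeR. Genes higher in EV day 3 than in both healthy nerve and healthy vein numbered 1770. Of these, 1448 rose in MIV day 3 relative to healthy muscle (81.8%, beside 33.5% of all tested genes). In the other direction, 104 fell (5.9%, beside 33.0%), and 218 were not called. The median log2 fold change of the 1770 genes was 3.08, with quartiles of 1.31 and 4.91, beside 0.07 for all genes. At least 4-fold rises were found for 1155 of them (65.3%, beside 17.7%). They took 23.1% ± 1.1 of the counts in MIV day 3 and 3.85% ± 0.335 in healthy muscle (SD, n = 3 each; two-sided exact permutation p = 0.1). In EV day 3 they took 22.97%, in MIV day 7 17.88%, in healthy nerve 5.395% and in healthy vein 5.854%. All shares of counts given here are of library totals without TMM factors, unlike the fold changes. Muscle-enriched genes took 80.4% of the counts in healthy muscle and 19.5% in MIV day 3. That leaves a smaller part of the healthy muscle counts to all other genes, whatever their level.

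Genes lower in EV day 3 than in both healthy nerve and vein were more often lower than higher in MIV day 3 relative to healthy muscle. Of 1633 such genes, 842 fell (51.6%, beside 33.0% of all tested), 168 rose (10.3%, beside 33.5%) and 623 were not called. The median log2 fold change of the 1633 genes was -1.23. Their median level was 2.55 CPM in MIV day 3 and 7.09 CPM in healthy muscle, with 2.62 CPM in EV day 3, 23.1 CPM in healthy nerve and 16.2 CPM in healthy vein. With library totals the median became 0.20, still below the 1.56 of all genes under that scaling. Their share of counts was 3.19% ± 0.3 in MIV day 3 and 5.9% ± 0.252 in healthy muscle (SD, n = 3 each; exact permutation p = 0.1).

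Genes that changed over time in the EV nerves were examined in the same contrast. Genes that fell from EV day 3 to EV day 7 numbered 762, and 595 of them were higher in MIV day 3 than in healthy muscle (78.1%, beside 33.5% of all tested genes) while 69 were lower (9.1%, beside 33.0%); their median log2 fold change was 2.79. Their median level was 30.1 CPM in MIV day 3 and 3.92 CPM in healthy muscle, against 31.8 CPM in EV day 3, 9.33 CPM in MIV day 7 and 9.21 CPM in EV day 7. Genes that rose from EV day 3 to EV day 7 numbered 1523. Of these, 617 were lower in MIV day 3 than in muscle (40.5%, beside 33.0% of all tested genes), 256 were higher (16.8%, beside 33.5%) and 650 were not called, with a median log2 fold change of -0.63. With library totals that median was 0.79, again below the 1.56 of all genes.

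Genes that separate the 2 other healthy tissues showed smaller shifts. The 2152 genes higher in nerve than in vein had a median log2 fold change of 0.17 (33.4% higher and 28.7% lower, beside 33.5% and 33.0% of all genes). That median was 0 with factors computed without the muscle-enriched genes. The 1609 genes higher in vein than in nerve had a median of 0.55, with 37.7% higher and 24.7% lower in MIV day 3. Their share of counts ran the other way, at 7.97% ± 0.287 in MIV day 3 and 19.2% ± 0.936 in healthy muscle (SD, n = 3 each). A share weights genes by their abundance, and the median does not. The 6 group shares were each without overlap and each had an adjusted p of 0.1 (exact permutation, Benjamini-Hochberg over 6 tests).

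**Figure D3:**
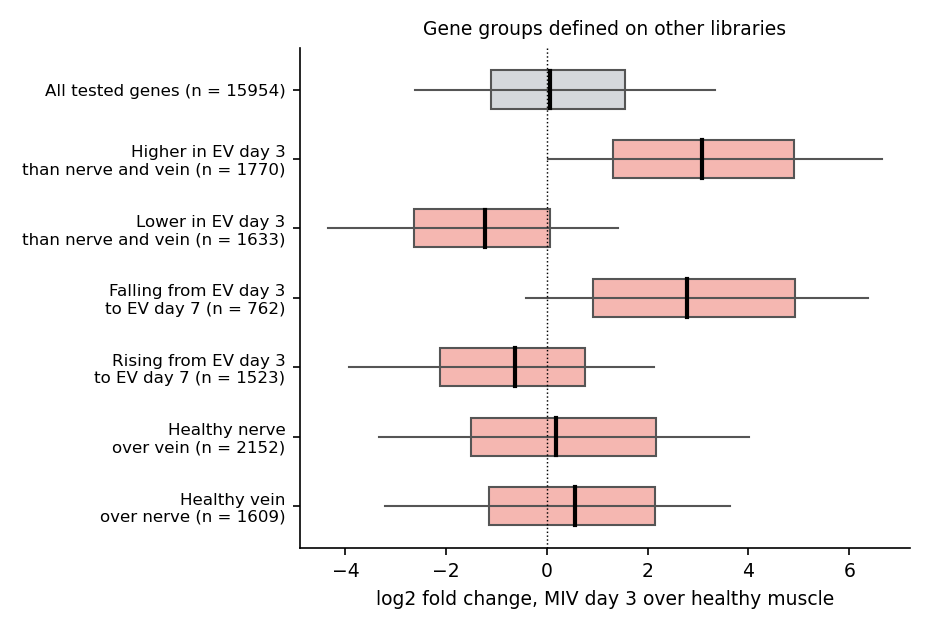
Log2 fold change of MIV day 3 over healthy muscle for all tested genes (top) and for 6 groups defined on other libraries; boxes span the quartiles, black bars are medians and lines run between percentiles 10 and 90. The group raised in EV day 3 (median 3.08) and the group falling from EV day 3 to day 7 (median 2.79) lie to the right of all genes (median 0.07), and the group lowered in EV day 3 (median -1.23) to the left.

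The muscle transcripts themselves were followed next. Muscle-enriched genes, which healthy muscle carried at well above the level of nerve and of vein (edgeR log2 fold change over 1 and adjusted p under 0.05), numbered 2842 and took 19.5% ± 1.93 of the counts in MIV day 3 and 80.4% ± 0.361 in healthy muscle (SD, n = 3 each). In MIV day 3, 2570 of them were called lower than in healthy muscle (90.4%, beside 33.0% of all tested genes), 48 higher (1.7%, beside 33.5%) and 224 in neither direction, at a median log2 fold change of -2.17. The healthy muscle libraries chose these genes, so the direction was favoured by the choice and the counts are a description. These counts also depend on the scaling. With library totals and no factors, 1884 of all 15954 tested genes were called lower, fewer than the 2570 called here. Levels relative to healthy muscle were lower the further healthy muscle stood above the other tissues. The genes were grouped by that same distance, so the nerve and vein percents restate the group limits, and the trend was favoured by the choice. MIV day 3 and EV day 3 did not set the groups. All these percents are of TMM-scaled CPM. At 1 to 2 log2 units above the other tissues (1412 genes), the median level in MIV day 3 was 36.4% of that in healthy muscle, beside 36% in EV day 3, 34% in healthy nerve and 32.2% in healthy vein. At 3 to 5 units (450 genes) it was 8.94%, beside 7.23%, 6.44% and 6.41% in the same 3 groups. At over 5 units (360 genes) it was 1.12%, beside 0.125% in EV day 3, 0.129% in healthy nerve and 0.0878% in healthy vein. MIV day 3 replicate 1 stood highest, at a median of 2.08%, with 0.528% in replicate 2 and 0.494% in replicate 3. Without replicate 1, the median log2 fold change of these 360 genes was -7.29, beside -6.42 with all libraries.

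These last 360 genes carried 1.93%, 0.657% and 0.558% of the counts in MIV day 3 replicates 1, 2 and 3, against 38.3%, 43.5% and 38.9% in healthy muscle replicates 1, 2 and 3. EV day 3 libraries held 0.237%, 0.331% and 0.4002%. All 3 MIV day 3 libraries thus lay above all EV day 3 libraries and far below healthy muscle. For 169 of the 360 genes (46.9%) every MIV day 3 library lay above every EV day 3 library, beside 7.08% of all 15954 genes. For the genes at 1 to 2 units that share was 6.4%, near the background. The 100 muscle-enriched genes with the highest level in healthy muscle all fell in MIV day 3 (beside 33.0% of all tested genes), a direction favoured by choosing them for their level in healthy muscle, with a median of 1.09% of the muscle level and a range from 0.0155% to 55.6%.

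A stricter group held transcripts close to exclusive to muscle among the healthy tissues. These 93 muscle-restricted genes had a mean of at least 50 CPM in healthy muscle and under 1 CPM in every healthy nerve and vein library, so healthy muscle chose them and neither MIV nor EV nerves did. They had 61071, 13111 and 10517 counts in MIV day 3 replicates 1, 2 and 3, which is 0.354%, 0.0868% and 0.061% of each library. EV day 3 replicates 1, 2 and 3 had 227, 723 and 345 counts, or 0.00182%, 0.00545% and 0.00233%. The lowest MIV day 3 library lay 11.2-fold above the highest EV day 3 library (exact permutation p = 0.1 for the difference in means). Healthy muscle held 3.12%, 2.83% and 2.83%, so that MIV day 3 averaged 5.71% of the healthy muscle share. These shares are of library totals without TMM factors. Levels per gene as a percent of healthy muscle are of TMM-scaled CPM, so the 2 kinds of percent are on unlike scales.

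Replicate 1 of MIV day 3 carried 5.8 times the share of replicate 3, and 85 of the 93 genes were highest in replicate 1. Without replicate 1, MIV day 3 averaged 2.52% of the healthy muscle share. A single gene, ENSRNOG00000008536, supplied 35.4%, 42.8% and 33.5% of the muscle-restricted counts in the 3 MIV day 3 libraries and at most 0.122% in healthy muscle. Without it, the MIV day 3 average was 3.63% of the healthy muscle share and the lowest MIV day 3 library still lay 7.45-fold above the highest EV day 3 library. At day 7, the MIV libraries spread further, from 0.0377% to 1.59%, while EV day 7 stayed at 0.00217% to 0.00224%.

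**Figure D4:**
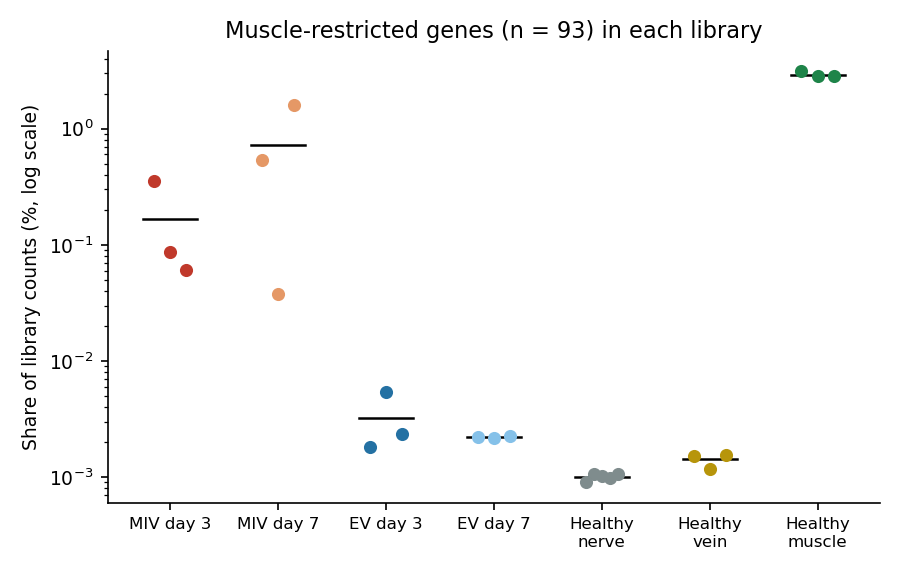
Share of library counts (%, log scale) taken by the 93 muscle-restricted genes in each of the 23 libraries; points are libraries and bars are group means. MIV day 3 libraries lie at 0.061% to 0.354%, above all EV, nerve and vein libraries and below healthy muscle at 2.83% to 3.12%.

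The muscle-restricted genes did not keep a common proportion of their healthy level. Of the 93, 89 fell in MIV day 3 (95.7%, beside 33.0% of all tested genes), 1 rose (1.1%, beside 33.5%) and 3 were not called (edgeR adjusted p under 0.05). High levels in healthy muscle were the rule for choosing these genes, which favours a fall, so these counts are a description. Their median log2 fold change was -7.10, and -9.00 without MIV day 3 replicate 1. The median level was 0.708% of healthy muscle, with quartiles of 0.187% and 2.69%, and 3 genes had no count in any MIV day 3 library. In all, 56 genes stood below 1% of the healthy level, 27 between 1% and 10%, 9 between 10% and 100%, and 1 above it. In EV day 3 the median was 0.0248%, and 27 of the 93 genes had no count. The proportions differed by library too: the median was 1.55% in MIV day 3 replicate 1, 0.229% in replicate 2 and 0.16% in replicate 3. At least 10 counts were found for 75, 58 and 49 of the 93 genes in these libraries, against 8, 18 and 7 in EV day 3.

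Nerve transcripts chosen in the same way were scarcer still. The 17 nerve-restricted genes (at least 50 CPM in healthy nerve and under 1 CPM in every muscle and vein library) had a median of 0.0788% of the healthy nerve level in MIV day 3 and 0.0926% in EV day 3. Of the 17, 16 stood below 1% in MIV day 3. Their summed counts, without scaling, were 179, 241 and 160 in MIV day 3, and 33, 4 and 34 in the healthy muscle libraries. Per gene the median ran the other way, at 0.0541 CPM in MIV day 3 and 0.181 CPM in healthy muscle (TMM-scaled). Against healthy muscle, 4 of the 17 were called lower (23.5%, beside 33.0% of all tested genes) and 1 higher (5.9%, beside 33.5%). The other 12 were not called, and the median log2 fold change was -1.13. All these levels are near 0, and low levels in muscle were part of the rule.

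**Figure D5:**
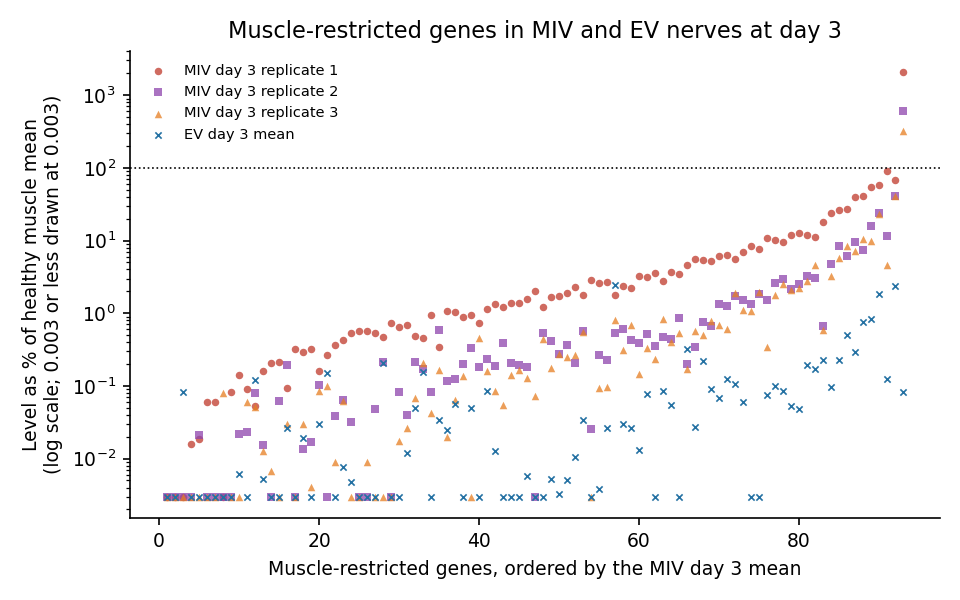
Level of each of the 93 muscle-restricted genes as a percent of its healthy muscle mean (log scale, values of 0.003 or less drawn at 0.003), in the 3 MIV day 3 libraries and as the EV day 3 mean, ordered by the MIV day 3 mean. Replicate 1 is highest for 85 genes, and 1 gene stands above the dotted line at 100% in all 3 libraries.

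In the other direction, 48 muscle-enriched genes were higher in MIV day 3 than in healthy muscle. Their median level was 44.4 CPM in MIV day 3 and 12.6 CPM in healthy muscle, with 22.4 CPM in EV day 3 and 15.4 CPM in MIV day 7. For 37 of the 48 the MIV day 3 and EV day 3 means lay within 2-fold of each other, 4 were 2- to 4-fold higher in MIV day 3, and 7 were at least 4-fold higher. The 2 with the largest ratio of MIV day 3 over EV day 3, picked after their values had been seen, were ENSRNOG00000008536 and ENSRNOG00000046276.

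ENSRNOG00000008536 stood at 1090, 321 and 169 CPM in MIV day 3 replicates 1, 2 and 3, against 92.4, 34.3 and 30.0 CPM in healthy muscle replicates 1, 2 and 3. Every MIV day 3 library lay above every healthy muscle library (log2 fold change 3.34 ± 0.91 SE, edgeR adjusted p = 0.00453). EV day 3 libraries held 1, 1 and 0 counts of it. Its log2 fold change against muscle was 2.24 without MIV day 3 replicate 1 (edgeR adjusted p = 0.0325), 4.08 without healthy muscle replicate 1 (edgeR adjusted p = 0.00508) and 4.82 with library totals. ENSRNOG00000046276 stood at 698, 124 and 69.2 CPM in MIV day 3 and at 31.3, 3.59 and 33 CPM in healthy muscle, again without overlap (log2 fold change 3.72 ± 0.97 SE, edgeR adjusted p = 0.00242). Its EV day 3 libraries held 0, 7 and 1 counts. Its log2 fold change against muscle was 2.10 without MIV day 3 replicate 1 (edgeR adjusted p = 0.0381) and 5.2 with library totals.

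Whether the difference from healthy muscle was itself different between MIV and EV nerves at day 3 was tested directly between these 2 groups, where the muscle libraries cancel out. With edgeR over the 12 repaired libraries, 0 of 15036 genes passed (0% higher and 0% lower), while 558 were higher and 217 lower at an unadjusted p under 0.05. DESeq2 called 234 genes higher and 15 lower, and 134 of these 249 were muscle-enriched (53.8%, beside 18.7% of the 14062 genes with an adjusted p in DESeq2). From summed counts, ENSRNOG00000008536 was 12600 times as high in MIV day 3 as in EV day 3, with an exact 95% counting interval of 3480 to 104000 that rests on 2 counts in EV day 3 (edgeR adjusted p = 0.132). ENSRNOG00000046276 was 1780 times as high, with an interval of 906 to 4140 and 8 counts in EV day 3 (edgeR adjusted p = 0.142). Both genes were picked for this ratio, so these intervals and the p-values of this difference describe them and are no independent support. Both were higher in 3 of 3 MIV libraries. Both passed with DESeq2 (adjusted p = 4.01e-13 and 1.3e-08) and with edgeR over all 23 libraries (adjusted p = 0.00197 for both), and the edgeR p ran up to 0.547 when single libraries were left out. From day 3 to day 7 in MIV nerves neither gene passed (edgeR adjusted p = 0.282 for ENSRNOG00000008536 and 0.419 for ENSRNOG00000046276).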

How the data were processed

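Gene expression was measured by RNA-seq in 23 rat libraries. Per the labels' protocols, TRIzol was used for RNA extraction, and poly-A mRNA from 350 ng of total RNA went into non-directional libraries, which cannot separate overlapping sense and antisense genes. The authors deposited raw counts per Ensembl gene identifier and library, and the submitters' processing notes name CASAVA and HISAT2. How reads were assigned to genes, with which build and annotation, is not given in the sources used here. Genes with near-identical copies are therefore uncertain.

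All 23 libraries (12504035 to 17314324 counts) were fitted with edgeR 4.0.16 in R 4.3.3 (filterByExpr, minimum count 10 and minimum total 15, TMM factors, robust glmQLFit, glmQLFTest, 1 coefficient per group, Benjamini-Hochberg, threshold 0.05). The biological coefficient of variation was 31.4%. DESeq2 1.42.0 was an alternative. MIV against EV at day 3 used the 12 repaired libraries. Intervals and floors cover counting error only. The 31 gene lists by symbol and the sarcomere share could not be measured, because 0 of 32545 identifiers matched the reference table (47357 rows, GRCr8). Gene groups by tissue replaced them. The rule for named genes asked for an adjusted p under 0.05, at least 10 CPM and no overlap, in order of log2 fold change, with 2 identifiers per direction where no symbol exists. Members, groups and rules were chosen with earlier results of these data known. The tests were checked on simulated counts in which 15469 of 15669 genes were left unchanged between the 2 groups, with 20 false calls among them. Changes of 2-fold were recovered for 53.6% of 56 genes, of 4-fold for 89% of 73 and of 8-fold for 95.8% of 71. The changed genes were drawn only from those with a fitted mean over 20 counts in both groups. Counts were simulated with the spread that the same model had fitted. These rates therefore do not cover weakly counted genes or genes near 0 in 1 group. In the data 66.4% of tested genes were called, so the simulation does not check the scaling under such a difference.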

Additional observations from a re-analysis of the deposited data

Results flagged for a closer look

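Healthy nerve replicate 5 stood apart in the share of counts taken by genes lower in EV day 3 than in nerve and vein. It held 25.74%, while the 4 other nerve libraries held 23.47% to 24.05%, and the gap to the nearest was 0.744 of the whole range. The same library was also highest for genes higher in EV day 3 than in nerve and vein, at 6.497%. There the gap was 0.71 of the range, equal to the critical value of 0.71. For genes rising from EV day 3 to EV day 7 it held 19.52%, with a gap of 0.697. Chance flags about 1 in 20 such groups, and 9 gene groups were examined, which come from the same libraries and are not independent. The library also entered the fit over all 23 libraries behind the main calls, the means that set the level groups, and the definition of gene groups. The 6 libraries of the comparison fitted alone gave 5089 genes higher and 4596 lower, beside 5338 and 5263. That fit drops every library outside the comparison, so it does not isolate healthy nerve replicate 5.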

How the results depend on the processing

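Leaving out each of the 6 libraries in turn gave 5059 to 5199 genes higher, 4852 to 5084 lower, 2694 to 2862 at least 4-fold higher and 2079 to 2255 at least 4-fold lower. DESeq2, RLE factors, factors computed without the muscle-enriched genes, no filter, a minimum count of 50 and the 6 libraries alone kept each of these counts within 1.5 times. The balance nevertheless turned with factors computed without the muscle-enriched genes, to 4555 higher and 6155 lower (42.5% higher, beside 50.4%) and, at 4-fold, 2437 and 2564 (48.7%, beside 56.3%). Library totals without factors, added after the data had been examined, gave 10618 higher, 1884 lower, 6235 at least 4-fold higher and 887 at least 4-fold lower; the median of all genes moved by 1.49 log2 units. A test against a 2-fold change (glmTreat) called 3334 higher and 3039 lower. Under that scaling by totals, the medians of genes lower in EV day 3 and of genes rising to EV day 7 changed sign to 0.20 and 0.79. With factors computed without the muscle-enriched genes, the median of all genes was -0.17 and that of genes higher in nerve than vein was 0. The cause was not tested.

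No label says whether replicate numbers pair the libraries, and 3 libraries per group cannot settle it. Same-numbered MIV day 3 and healthy muscle libraries had correlations of deviations of -0.065, -0.055 and 0.001, and none correlated best with its own number. Same-numbered MIV day 3 and EV day 3 libraries had -0.091, 0.239 and -0.015, and replicate 2 correlated best with its own number. The 6 libraries with a replicate block gave 4740 higher, 4333 lower, 2624 at least 4-fold higher and 1879 at least 4-fold lower, against 5089, 4596, 2679 and 1898 without the block. For MIV against EV at day 3, DESeq2 called 249 genes, edgeR over all 23 libraries 160 and the replicate block on the 6 day 3 libraries 3; leaving out single libraries gave 0 to 0.

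The muscle-restricted share in MIV day 3 minus EV day 3 was 0.164 percentage points, and 0.0707 to 0.217 without single libraries. The share of the 10 most counted genes differed by -19.67 to -18.55 points and the number of genes making up 50% of the counts by 609.7 to 655.2. The sarcomere share and the lists by symbol, with their alternatives, were not run, because no symbol matched. In the main fit, genes that did not reach about 10 counts in at least 3 libraries, the smallest group size, were not tested.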
